A study of Homo sapiens with 6 samples.

Results

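Genes that fold proteins in the endoplasmic reticulum (ER), or remove those that fail to fold, were followed in HCT116 cells after knockdown of Matrin3, a nuclear RNA-binding protein. The set was a list of 34 gene symbols taken by function: the sensors of the unfolded protein response with XBP1, ER chaperones, lectin chaperones, disulfide isomerases and oxidases, components of ER-associated degradation (ERAD), and the translocon. All 34 matched an entry among the 58884 gene IDs of the series, and all 34 were high enough to test, among 14334 genes tested. HCT116 is an established human colorectal cancer line. RNA was taken 48 h after transfection with pooled siRNAs that target Matrin3 (siMatrin3, 3 libraries) or with a negative control siRNA (siCTRL, 3 libraries). All 6 libraries therefore came from transfected cells of 1 line, the labels name no agent that unfolds ER proteins in either group, and an effect of losing Matrin3 cannot be told apart from an effect of the siRNA pool on other transcripts.

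Proteins bound for secretion or for membranes enter the ER through the Sec61 channel and are folded there by BiP (encoded by HSPA5), by the lectins calnexin and calreticulin and by disulfide isomerases. When unfolded proteins accumulate, the membrane sensors ATF6, IRE1 (ERN1) and PERK (EIF2AK3) start the unfolded protein response. Cleaved ATF6, and the XBP1 protein made after IRE1 splices XBP1 mRNA, then turn on chaperone and ERAD genes, while PERK slows translation and acts through ATF4.

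The promoters of these genes are known for short elements bound by ATF6 with NF-Y or by XBP1, and the elements are shown here because they mark which members share one. RefSeq windows (GRCh38.p14, 250 bases before to 50 bases after a start site) were found for 32 of the 34 members. The ER stress response element (ERSE) was searched on both strands as CCAAT and CCACG separated by 9 bases. It stood in 9 of 32 members (28.1%), against 25 of all 27305 genes with a window (0.0916%). In the lines that follow, capitals mark the element, and each sequence is read in the direction of the element. Positions are those of the whole printed stretch, which holds 20 bases on each side of the element. The HSPA5 stretch lies at chr9:125241371-125241429, minus strand, the CANX stretch at chr5:179698758-179698816, plus strand, the CALR stretch at chr19:12938364-12938422, minus strand, the PDIA6 stretch at chr2:10812833-10812891, minus strand, and the XBP1 stretch at chr22:28800583-28800641, minus strand. HSP90B1 had 2 sites, in stretches at chr12:103930196-103930254, plus strand, and at chr12:103930301-103930359, minus strand.
HSPA5: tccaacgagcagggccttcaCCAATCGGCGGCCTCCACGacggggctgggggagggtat
CANX: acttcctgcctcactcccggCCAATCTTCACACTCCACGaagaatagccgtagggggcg
CALR: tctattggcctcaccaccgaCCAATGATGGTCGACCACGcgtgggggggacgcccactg
PDIA6: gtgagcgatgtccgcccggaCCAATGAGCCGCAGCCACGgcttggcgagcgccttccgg
XBP1: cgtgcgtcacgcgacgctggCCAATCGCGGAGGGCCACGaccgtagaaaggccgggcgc
HSP90B1, distal: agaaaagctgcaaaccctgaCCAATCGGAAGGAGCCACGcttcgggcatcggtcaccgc
HSP90B1, proximal: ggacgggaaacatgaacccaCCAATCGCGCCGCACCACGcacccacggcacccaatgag

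CRELD2, ERO1B and SERP1 held the other ERSE matches. A related element, ERSE-II, was searched as ATTGG and CCACG separated by 1 base after results for ERSE had been seen. It stood in 19 of all genes (0.0696%) and in 3 members, of which HYOU1 had 2 sites. The SDF2L1 stretch, again with 20 bases on each side, lies at chr22:21642094-21642144, minus strand, the HERPUD1 stretch at chr16:56932005-56932055, plus strand, and the HYOU1 stretches at chr11:119057254-119057304, plus strand, and at chr11:119057360-119057410, plus strand.
SDF2L1: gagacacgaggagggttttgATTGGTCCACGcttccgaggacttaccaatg
HERPUD1: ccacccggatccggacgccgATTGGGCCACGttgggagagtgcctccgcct
HYOU1, proximal: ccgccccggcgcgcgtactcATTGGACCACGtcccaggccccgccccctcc
HYOU1, distal: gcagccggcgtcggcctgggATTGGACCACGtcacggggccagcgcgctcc

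The core of the unfolded protein response element, TGACGTG, stood in 654 of all genes (2.40%) and in 3 members, DNAJC10, HYOU1 and SEC61A1. In HYOU1 it overlaps the distal ERSE-II. CCACG alone, a part of ERSE and of ERSE-II, stood in 24 of 32 members and in 42.1% of all genes. A match of letters is a description of these windows and does not show a bound site.

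**Figure D1:**
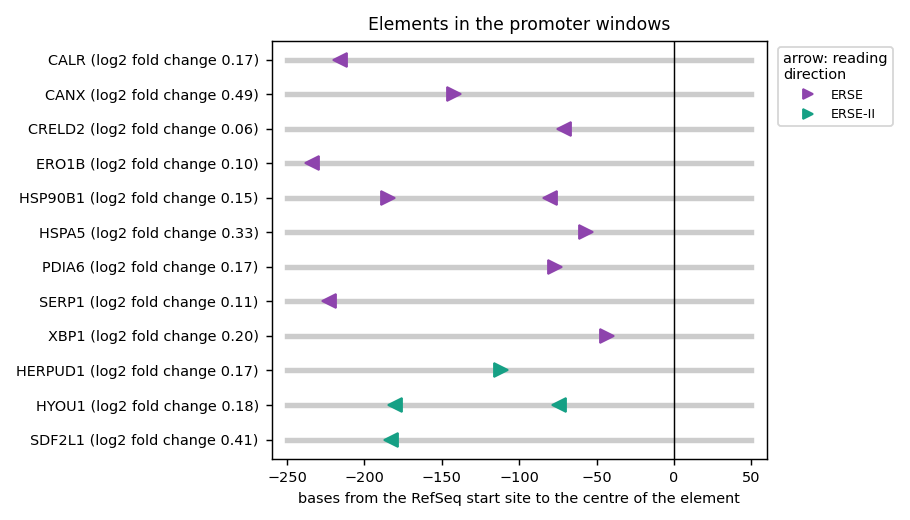
ERSE and ERSE-II matches in the promoter windows of 12 members; the x axis is the distance in bases from the RefSeq start site to the centre of the element, arrows point in the element's reading direction along the gene, and each gene carries its log2 fold change of counts, siMatrin3 over siCTRL. The XBP1 and HSPA5 elements lie nearest to the start site, 43 and 57 bases before it, and the CANX element lies 142 bases before it.

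The knockdown was checked first. MATR3 had 72.4, 67.9 and 71.4 CPM (read counts per 1e+06 of the scaled library total) in the siMatrin3 libraries, against 363, 343 and 330.2 CPM in the siCTRL libraries, a log2 fold change of -2.29 ± 0.06 (SE, adjusted p = 7.58e-11 by edgeR's quasi-likelihood test). Each library held between 4556658 and 8400412 estimated counts. The 8 epithelial markers, which fit the line, summed to 1921 to 2028 CPM in siMatrin3 and 1694 to 1862 CPM in siCTRL. Of the 8, 2 (EPCAM and KRT19) passed the test as higher, against 5.68% of all genes tested, and 6 did not pass. Their log2 fold change was above 0 in 6 and below 0 in 2. Of the fibroblast markers, summing to 19.3 to 23.2 CPM in siMatrin3 and 20.3 to 21.6 CPM in siCTRL, 5 of 8 were at 0 in every library, among them COL1A2 and DCN. Blood markers summed to 0.936 to 1.92 CPM in siMatrin3 and 0 to 1.06 CPM in siCTRL, with CD3E and HBB at 0, and neural markers to 38.8 to 46.8 CPM in siMatrin3 and 38.6 to 39.9 CPM in siCTRL. Markers of secretory and plasma cells, which carry a large ER, summed to 48.2 to 54.2 CPM in siMatrin3 and 57.0 to 58.5 CPM in siCTRL, with JCHAIN, TFF3 and CPA1 at 0. The part of the epithelial difference in the results was not tested, and in bulk RNA fewer cells of a kind and less RNA per cell cannot be told apart.

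The members were examined next as a set. The lectin chaperones, BiP and 2 of its partners (HYOU1 and DNAJC3), 3 disulfide isomerases and the Sec61 channel were higher in siMatrin3, the oxidase ERO1A was lower, and the sensors, XBP1 and the ERAD genes did not pass the test. By edgeR's quasi-likelihood test with Benjamini-Hochberg adjustment over all genes at 0.05, 9 of 34 members were higher, against 5.68% of all genes tested. 1 of 34 was lower, against 5.18% of all genes tested. The other 24 did not pass. The log2 fold change was above 0 in 27 members and below 0 in 7, with a median of 0.17, beside a median of -0.00065 over all genes tested.

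For 15 members the lowest siMatrin3 CPM lay above the highest siCTRL CPM, against 15.0% of all genes tested, and for 2 the highest siMatrin3 CPM lay below the lowest siCTRL CPM, against 14.7%. In the other 17 the groups overlapped. 3 against 3 libraries give no exact permutation p under 0.1. With the replicate number as a block, 12 members were higher, against 8.39% of all genes. Leaving out siCTRL replicate 1, 2 or 3 left 4, 6 and 3 members higher, where 3.66%, 4.26% and 2.35% of all genes were higher. Leaving out siMatrin3 replicate 1, 2 or 3 left 5, 8 and 3 members, against 3.33%, 4.20% and 2.89% of all genes. CANX, HSPA5 and PDIA3 passed in all 6 of these fits.

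**Figure D2:**
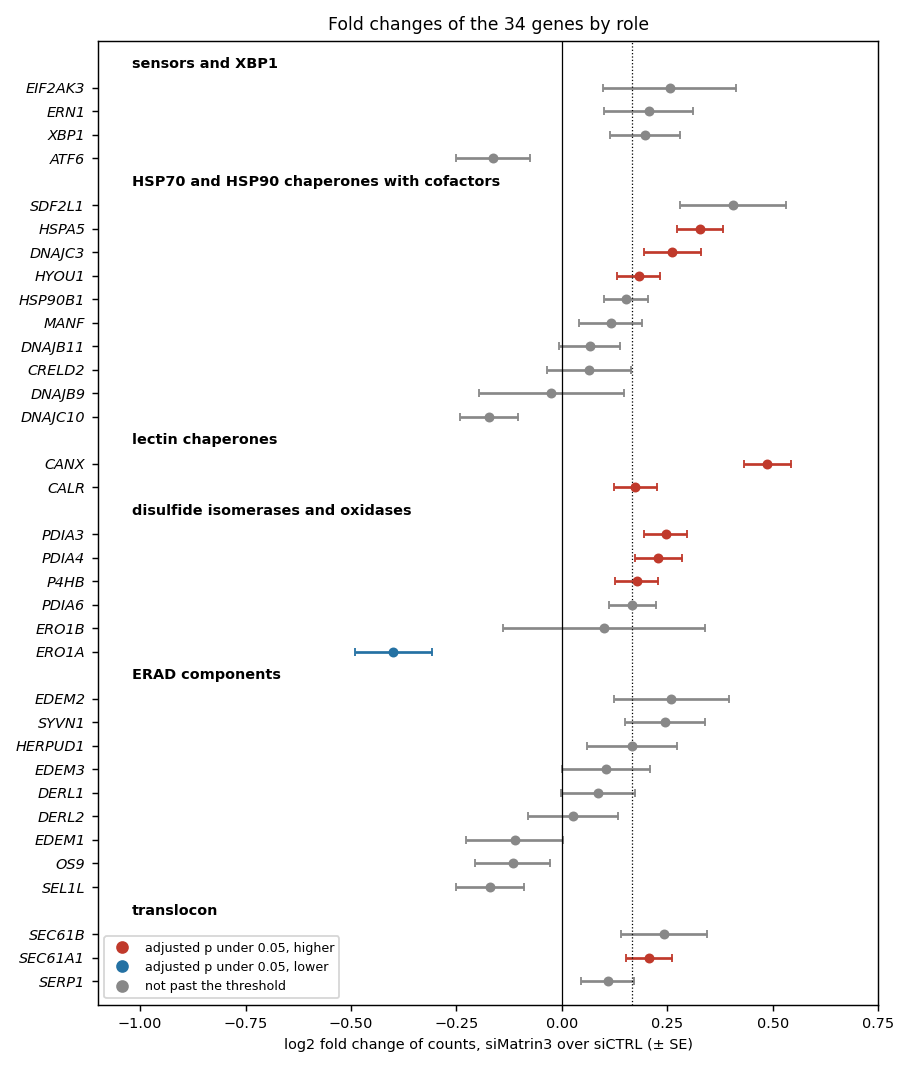
Log2 fold change of counts (x axis, siMatrin3 over siCTRL, edgeR) of the 34 members by role, with bars of ± 1 SE; red and blue points passed an adjusted p of 0.05 as higher and lower, and the dotted line is the members' median of 0.17. CANX lies farthest to the right at 0.49 and ERO1A farthest to the left at -0.40, and all 9 ERAD components are grey.

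The sensors and XBP1 come first in the pathway. Of the 4, 0 passed by edgeR or DESeq2, where edgeR called 5.68% of all genes tested higher and 5.18% lower. Of them, 1 (XBP1) had an unadjusted p under 0.05 by edgeR. ATF6, the sensor released to the Golgi for cleavage, had 45.8, 44.4 and 46.8 CPM in the siMatrin3 libraries, against 44.2, 52.2 and 56.2 CPM in the siCTRL libraries. The difference of -0.16 ± 0.09 in log2 did not pass (SE, adjusted p = 0.278 by edgeR), and siCTRL replicate 1 lay below all 3 siMatrin3 libraries. EIF2AK3, which encodes the kinase PERK, had 17.1, 15.7 and 19.03 CPM in the siMatrin3 libraries, against 17.7, 14.8 and 11.3 CPM in the siCTRL libraries. Replicates 1 and 2 of siMatrin3 lay within the siCTRL range, and the log2 fold change of 0.26 ± 0.16 did not pass (adjusted p = 0.348 by edgeR).

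ERN1, which encodes the kinase and ribonuclease IRE1, had 22.2, 24.03 and 22.1 CPM in the siMatrin3 libraries, against 18.8, 20.7 and 19.4 CPM in the siCTRL libraries. Its groups did not overlap, and the log2 fold change of 0.21 ± 0.11 did not pass (SE, adjusted p = 0.249 by edgeR). Its TPM, a value per length, did overlap between the groups. XBP1, the transcription factor made from the IRE1-spliced mRNA, had 58.03, 48.2 and 54.6 CPM in the siMatrin3 libraries, against 48.3, 47.6 and 44.9 CPM in the siCTRL libraries. The lowest siMatrin3 library lay within the siCTRL range, and the difference was 0.20 ± 0.08 in log2 (SE, adjusted p = 0.157 by edgeR). Gene totals hold neither the splicing of XBP1 nor the cleavage of ATF6, and neither was measured here.

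**Figure D3:**
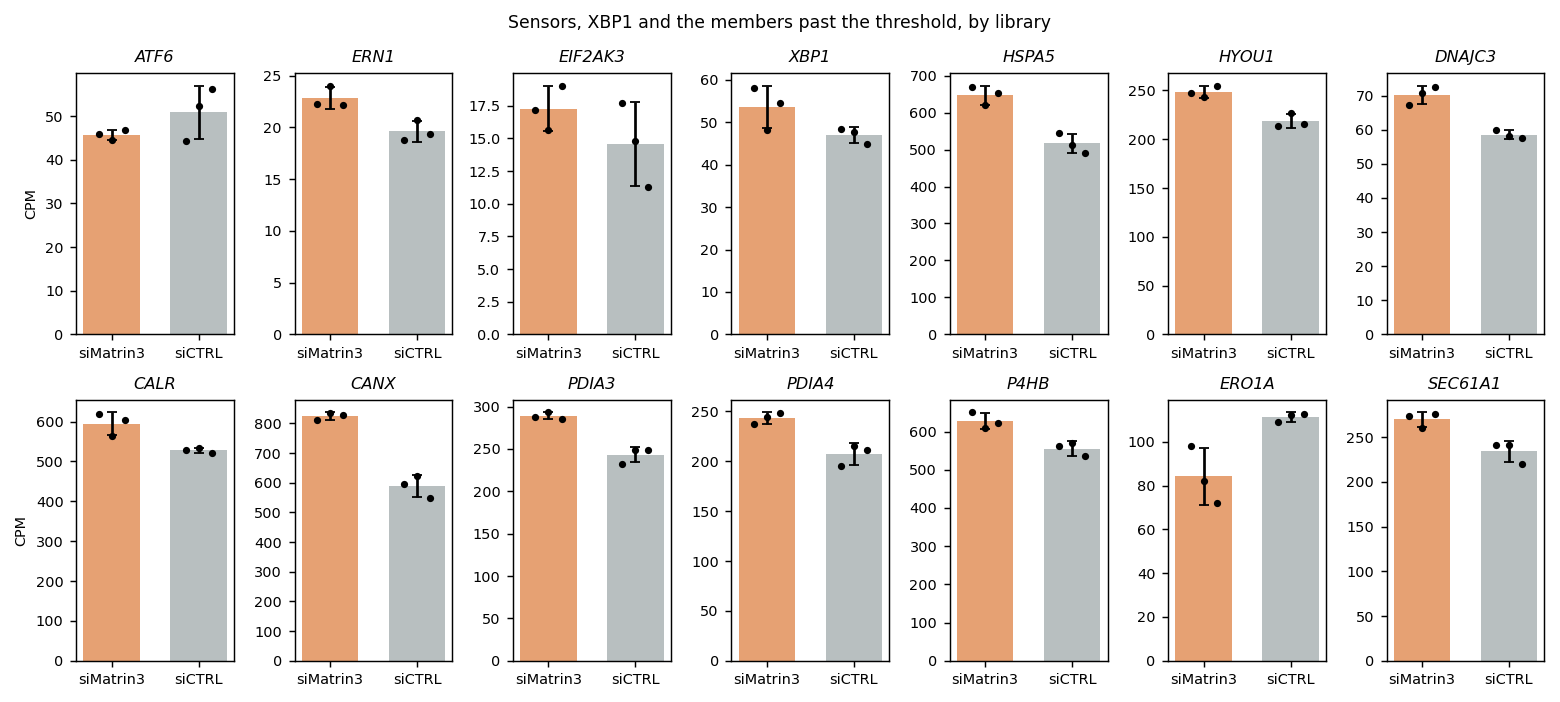
CPM (y axis, each panel from 0) of the 4 sensor and XBP1 genes and the 10 members past the threshold in the 3 siMatrin3 and 3 siCTRL libraries; bars are means, error bars SD, and dots single libraries. In the 10 members past the threshold the siMatrin3 and siCTRL dots lie apart, while ATF6, EIF2AK3 and XBP1 overlap.

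Of the 10 HSP70 and HSP90 chaperones with their cofactors, 3 rose, against 5.68% of all genes tested, and the median was 0.13 on the log2 scale. With the replicate block 5 rose, against 8.39% of all genes tested. HSPA5 encodes BiP, the ER HSP70 that also holds the sensors inactive (ENSG00000044574, chromosome 9, 125234853 to 125241382, minus strand, on hg38). It had 669.7, 619 and 652 CPM in the siMatrin3 libraries, against 545, 512 and 492 CPM in the siCTRL libraries. Every siMatrin3 library lay above every siCTRL library, and the difference was 0.33 ± 0.05 in log2 (SE, adjusted p = 0.00225 by edgeR). No other gene's exons overlap those of HSPA5, and its effective length was the same in all libraries, so its TPM carries no length correction between them. A pseudogene, HSPA5P1, may share some of its reads.

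HYOU1, an ER HSP110 relative that exchanges the nucleotide of BiP, had 247, 243 and 255 CPM in the siMatrin3 libraries, against 214, 226 and 216 CPM in the siCTRL libraries. DNAJC3, a J-domain partner of BiP that also inhibits PERK, had 67.3, 70.7 and 72.7 CPM in the siMatrin3 libraries, against 59.99, 58.2 and 57.6 CPM in the siCTRL libraries. In both the groups were apart, with log2 fold changes of 0.18 ± 0.05 for HYOU1 and 0.26 ± 0.07 for DNAJC3 (adjusted p = 0.0392 and 0.0255 by edgeR). HYOU1 kept its call only without siCTRL replicate 2, and lost it without siCTRL replicate 1 or 3 (adjusted p = 0.114 and 0.132 by edgeR) or siMatrin3 replicate 1, 2 or 3 (0.0951, 0.0578 and 0.149). DNAJC3 lost it without siCTRL replicate 2 or 3 (adjusted p = 0.0788 and 0.0952 by edgeR) or siMatrin3 replicate 2 or 3 (0.0643 and 0.102), and neither passed in DESeq2.

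HSP90B1, the ER HSP90 known as GRP94, had 686, 710.4 and 647 CPM in the siMatrin3 libraries, against 632, 617 and 589.8 CPM in the siCTRL libraries, with no overlap. Its log2 fold change of 0.15 ± 0.05 missed the threshold (adjusted p = 0.0857 by edgeR) and passed with the replicate block (adjusted p = 0.0207). SDF2L1, which works with BiP and its J-domain partners, had 34.7, 26.5 and 35.4 CPM in the siMatrin3 libraries, against 26.8, 25.4 and 21.1 CPM in the siCTRL libraries. Replicate 2 of siMatrin3 lay within the siCTRL range. The log2 fold change of 0.41 ± 0.12 missed the threshold (adjusted p = 0.0534 by edgeR) and passed with the block (adjusted p = 0.0440), without siMatrin3 replicate 2 (adjusted p = 0.0149), without a count filter (adjusted p = 0.00525) and with a filter at a mean of 5 CPM.

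MANF, a small secreted protein of the stress response, had 51.4, 55.02 and 49.1 CPM in the siMatrin3 libraries, against 46.8, 48.4 and 47.9 CPM in the siCTRL libraries, with no overlap and a log2 fold change of 0.12 ± 0.07 (SE, adjusted p = 0.372 by edgeR). DNAJC10, a J-domain disulfide reductase, pointed the other way. It had 96.2, 100.3 and 85.6 CPM in the siMatrin3 libraries, against 108, 105 and 104 CPM in the siCTRL libraries, a log2 fold change of -0.17 ± 0.07 (SE, adjusted p = 0.131 by edgeR) without overlap, and 0.01 with effective lengths as an offset. DNAJB9, DNAJB11 and CRELD2, J-domain partners of BiP and a secreted stress-induced protein, ranged from -0.03 to 0.07 and overlapped between groups.

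Both lectin chaperones, which hold glycoproteins by their trimmed sugar chains, rose, where 5.68% of all genes tested were higher. CANX encodes calnexin, the membrane lectin (ENSG00000127022, chromosome 5, 179678628 to 179731641, plus strand, on hg38). It had 811, 837 and 829 CPM in the siMatrin3 libraries, against 596, 622 and 548 CPM in the siCTRL libraries. The lowest siMatrin3 library lay far above the highest siCTRL library, the mean was 40.3% higher, and the difference was 0.49 ± 0.05 in log2 (SE, adjusted p = 0.000145 by edgeR). CANX was the only member that passed in all 17 alternatives. Its exons overlap those of the pseudogene HMGB3P22 on the same strand and of CBY3 on the opposite strand.

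CALR, the soluble lectin calreticulin, had 619, 563 and 604 CPM in the siMatrin3 libraries, against 529, 533 and 521 CPM in the siCTRL libraries. It had the highest TPM of all members, and its groups did not overlap in CPM. The difference was 0.17 ± 0.05 in log2 (SE, adjusted p = 0.0448 by edgeR). It passed without siMatrin3 replicate 2, and lost the call when any other library was left out (adjusted p = 0.0993, 0.0783 and 0.141 without siCTRL replicate 1, 2 or 3, and 0.166 and 0.146 without siMatrin3 replicate 1 or 3, by edgeR).

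Of the 6 disulfide isomerases and oxidases, 3 rose and 1 fell, against 5.68% and 5.18% of all genes tested. PDIA3 (ERp57), which serves the glycoproteins held by calnexin and calreticulin, had 288, 294 and 286 CPM in the siMatrin3 libraries, against 233, 248 and 249 CPM in the siCTRL libraries. PDIA4 (ERp72), an isomerase with several thioredoxin domains, had 237, 245 and 249 CPM in the siMatrin3 libraries, against 195, 216 and 211 CPM in the siCTRL libraries. P4HB, the founding isomerase PDI, had 651, 609.6 and 624 CPM in the siMatrin3 libraries, against 561, 570.4 and 535 CPM in the siCTRL libraries. In all 3 the siMatrin3 libraries lay above all siCTRL libraries. The log2 fold changes were 0.25 ± 0.05, 0.23 ± 0.06 and 0.18 ± 0.05 for PDIA3, PDIA4 and P4HB (SE, adjusted p = 0.00855, 0.0185 and 0.0395 by edgeR). PDIA4 lost its call without siCTRL replicate 1 or 3 or siMatrin3 replicate 3 (adjusted p = 0.0727, 0.0566 and 0.0783 by edgeR), and P4HB passed only without siMatrin3 replicate 2 among these fits (adjusted p = 0.0829, 0.0514 and 0.153 without siCTRL replicate 1, 2 or 3, and 0.148 and 0.102 without siMatrin3 replicate 1 or 3).

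PDIA6, a further isomerase, had 161, 154 and 150.0 CPM in the siMatrin3 libraries, against 139.6, 138 and 137 CPM in the siCTRL libraries, again with no overlap. Its log2 fold change of 0.17 ± 0.06 missed the threshold (adjusted p = 0.0720 by edgeR) and passed with the replicate block (adjusted p = 0.0427). PDIA3 has the named pseudogenes PDIA3P1 and PDIA3P2, and its exons overlap those of ELL3 and CATSPER2P1 on the opposite strand. Whether reads were counted by strand is not given in the sources used here, which also bears on CALR, P4HB, HYOU1, SEC61A1 and ERO1A, each with an overlapping gene on the opposite strand.

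The oxidases hand electrons from the isomerases to oxygen, and the main one moved against the isomerases. ERO1A (ENSG00000197930, chromosome 14, 52639915 to 52695900, minus strand, on hg38), also known to respond to low oxygen, had 98.2, 82.2 and 72.2 CPM in the siMatrin3 libraries, against 109, 112 and 113 CPM in the siCTRL libraries. The siCTRL libraries were close together and the siMatrin3 libraries spread below them, with replicate 3 lowest. ERO1A differed by -0.40 ± 0.09 in log2 (SE, adjusted p = 0.0140 by edgeR). The call was lost without siMatrin3 replicate 3 (adjusted p = 0.0534 by edgeR, with a log2 fold change of -0.30) and without siCTRL replicate 2 or 3 (adjusted p = 0.0540 and 0.0669). ERO1B, the second oxidase, stood at 6.83 ± 1.21 CPM in siMatrin3 and 6.37 ± 1.52 CPM in siCTRL (SD, n = 3 each), the lowest TPM of all members, with a log2 fold change of 0.10 ± 0.24 (SE).

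ERAD carries misfolded proteins back out of the ER to the proteasome. By edgeR or DESeq2, 0 of its 9 members passed, with 1 (SYVN1) at an unadjusted p under 0.05 by edgeR. Over all genes tested, edgeR called 5.68% higher and 5.18% lower, so 0 calls in 9 genes lie near those shares. Their log2 fold changes ran from -0.17 to 0.26 with a median of 0.08, and 6 were above 0. Among the mannosidase-like EDEM genes, which mark glycoproteins for removal, EDEM2 had 14.7, 18.98 and 16.8 CPM in the siMatrin3 libraries, against 13.4, 14.3 and 14.1 CPM in the siCTRL libraries. EDEM2 was the only ERAD member whose groups did not overlap in CPM, and its log2 fold change of 0.26 ± 0.14 did not pass (SE, adjusted p = 0.261 by edgeR). EDEM1 and EDEM3 stood at -0.11 and 0.10.

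The ubiquitin ligase SYVN1 (HRD1) and its partner SEL1L pointed apart. SYVN1 averaged 42.7 ± 4.42 CPM in siMatrin3 and 35.8 ± 2.39 CPM in siCTRL (SD, n = 3 each), a log2 fold change of 0.24 (adjusted p = 0.123 by edgeR). SEL1L averaged 57.4 ± 3.84 CPM in siMatrin3 and 64.1 ± 4.99 CPM in siCTRL, a log2 fold change of -0.17 (adjusted p = 0.206), and was the only ERAD member lower in siMatrin3 in all 3 same-numbered pairs. The lectin OS9, which delivers glycoproteins to SEL1L, stood at -0.12, the membrane protein HERPUD1 at 0.17, and DERL1 and DERL2, which form part of the exit channel, at 0.08 and 0.03. In all of these the groups overlapped in CPM.

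The translocon members were all above 0, and 1 of 3 passed as higher, against 5.68% of all genes tested. SEC61A1 encodes the channel itself and had 274, 261 and 276 CPM in the siMatrin3 libraries, against 241, 241 and 220.3 CPM in the siCTRL libraries. SEC61B, its small subunit, had 30.3, 29.4 and 35.9 CPM in the siMatrin3 libraries, against 25.03, 28.4 and 26.8 CPM in the siCTRL libraries. Neither gene overlapped between groups. SEC61A1 rose by 0.21 ± 0.06 on the log2 scale (SE, adjusted p = 0.0290 by edgeR), and SEC61B had a log2 fold change of 0.24 ± 0.10 that did not pass (adjusted p = 0.156).

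The SEC61A1 difference was the smallest on TPM among the members that passed. With effective lengths as an offset its log2 fold change was 0.11 (adjusted p = 0.537 by edgeR), and its TPM overlapped between groups. Its call was lost without siCTRL replicate 1 or 3 (adjusted p = 0.0512 and 0.133 by edgeR) or siMatrin3 replicate 1 or 3 (0.0932 and 0.112). SERP1, a small protein that sits at the translocon, averaged 104 ± 5.01 CPM in siMatrin3 and 96.5 ± 2.62 CPM in siCTRL (SD, n = 3 each), a log2 fold change of 0.11.

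The members were then compared library by library. Summed over the 34 genes, the siMatrin3 libraries held 5757, 5632 and 5607 CPM, against 4942, 5007 and 4781 CPM in the siCTRL libraries. Summed TPM was 2473, 2380 and 2311 in the siMatrin3 libraries, against 2230, 2197 and 2214 in the siCTRL libraries. On both scales the groups did not overlap, and CALR, P4HB, HSP90B1 and CANX had the highest TPM of the members. The titles number the libraries 1 to 3 in each group. In same-numbered pairs, 20 members were higher in siMatrin3 in all 3 pairs and 3 in none, and the shares over all genes tested were not taken. The 3 were ERO1A, DNAJC10 and SEL1L. Pairs 1, 2 and 3 had 27, 27 and 23 members higher in siMatrin3, with median differences of 0.15, 0.10 and 0.16 in log2 CPM. For these pairs, too, no share over all genes was taken.

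**Figure D4:**
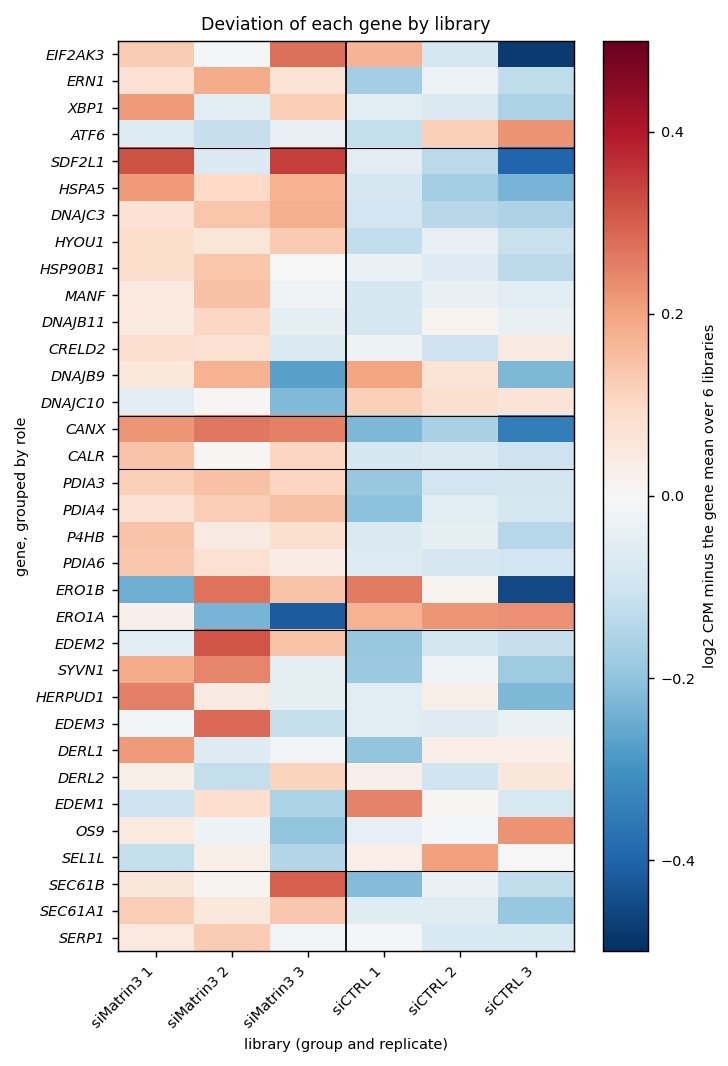
Log2 CPM of each member (rows, grouped by role) minus its mean over the 6 libraries (columns, siMatrin3 left of the line and siCTRL right of it); red is above the gene's mean and blue below. The CANX and HSPA5 rows are red in all 3 siMatrin3 libraries and blue in all 3 siCTRL libraries, ERO1A is deepest blue in siMatrin3 replicate 3, and the ERAD rows mix colours on both sides.

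The calls lay with the abundant members. On TPM, which allows genes to be compared, members ran from 2.0 (ERO1B) to 324 (CALR) on average over the 6 libraries. Of the 12 members with a mean of at least 50 TPM, 8 rose, and their median was 0.19 on the log2 scale. Of the 22 under 50 TPM, 1 rose (DNAJC3) and 1 fell (ERO1A), and their median was 0.09. Over all genes tested, edgeR called 5.68% higher and 5.18% lower, so the calls among the 22 lie near those shares. Shares over all genes at each level were not taken. The sensors, XBP1 and all ERAD members are among these 22, the highest of them DERL1 at 37.1 TPM. Role and level therefore cannot be told apart for those genes. Across the 34 genes Spearman's rho between level and log2 fold change was 0.29, a description of genes that share the same 6 libraries. Low genes carry more counting error.

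Values per length were compared next. CANX had 302, 315 and 291 TPM in the siMatrin3 libraries, against 232, 230.3 and 207 TPM in the siCTRL libraries. HSPA5 had 168, 151 and 157 TPM in the siMatrin3 libraries, against 145, 133 and 133 TPM in the siCTRL libraries. CALR had 346, 305 and 344 TPM in the siMatrin3 libraries, against 317, 311 and 321 TPM in the siCTRL libraries, and P4HB had 344, 315 and 295 TPM in the siMatrin3 libraries, against 308, 303 and 311 TPM in the siCTRL libraries. CANX and HSPA5 did not overlap between groups, while CALR and P4HB did.

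Over all members, 7 were higher in all siMatrin3 libraries by TPM and 3 were lower, counts for which the share over all genes tested was not taken. The higher ones were HSPA5, HYOU1, DNAJC3, CANX, PDIA3, PDIA4 and HERPUD1, and the lower ones ATF6, DNAJC10 and ERO1A. By limma-trend on log2(TPM + 1), 1 member was higher (CANX, log2 difference 0.44, adjusted p = 0.0231), against 0.216% of all genes tested, and 0 were lower. At an unadjusted p under 0.05, 3 were higher (HSPA5, CANX and HERPUD1) and 1 was lower (ERO1A). The deposited TPM was lower in siMatrin3 over all genes tested, with a median log2 difference of -0.09.

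The members' median on that scale was 0.06, which is 0.15 above the median of all genes, and 21 members were above 0. After scaling TPM between libraries by TMM, a step chosen after seeing the data, the members' median was 0.15 and 29 members were above 0. With effective lengths as an offset in edgeR, 2 members were higher (CANX and HSPA5), against 0.691% of all genes tested, 0 were lower (1, ERO1A, at an unadjusted p under 0.05), and the median was 0.17. The spread between replicates, as the biological coefficient of variation, was 12.7% with the offset and 6.44% without it.

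**Figure D5:**
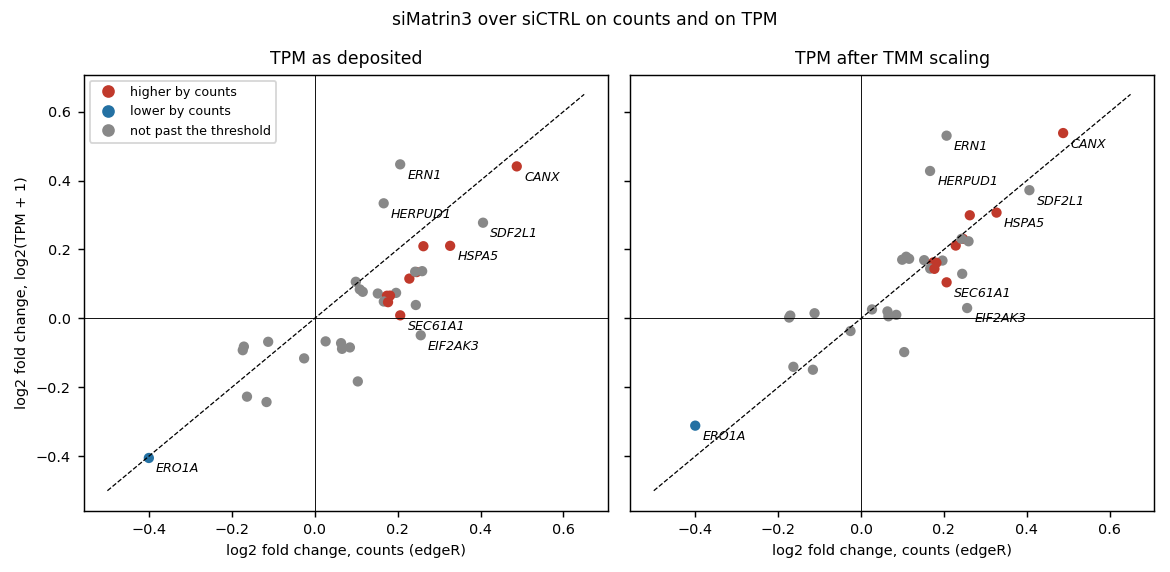
Log2 fold change of each member by counts (x axis, edgeR) against its log2 difference on TPM + 1 (y axis), siMatrin3 over siCTRL, with TPM as deposited at left and after TMM scaling at right; the dashed line marks equal values. At left 21 of 34 points lie above 0 and most lie below the line, at right 29 lie above 0, and ERN1 and HERPUD1 stand above the line in both.

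The members with and without an element are set side by side. The 9 members with the element had a median log2 fold change of 0.17 with 3 higher (HSPA5, CALR and CANX), and the 23 with a window and no element had a median of 0.17 with 5 higher and 1 lower. Of 16 other genes with an ERSE, 7 could be tested. Of these, edgeR called 0, against 5.68% higher and 5.18% lower of all genes tested. At an unadjusted p under 0.05 there were 0, and by DESeq2 0. At those shares, 7 genes are too few for 0 calls to set them apart from all genes. The 3 members with ERSE-II, HYOU1, SDF2L1 and HERPUD1, had a median of 0.18 with 1 higher. The difference between these groups was not tested.

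Other genes of the secretory pathway were taken from lists by function, with 160 genes of which 150 were tested. By edgeR 28 were higher and 12 lower, against 5.68% and 5.18% of all genes tested, with a median of 0.09. With the replicate block 33 were higher, against 8.39% of all genes tested, and 12 lower, against 1056 of 14334. Leaving out siCTRL replicate 1, 2 or 3 left 16, 18 and 13 higher, where 3.66%, 4.26% and 2.35% of all genes were higher. It left 8, 7 and 5 lower, where 542 of 14819, 489 of 14529 and 357 of 14897 genes were lower. Leaving out siMatrin3 replicate 1, 2 or 3 left 15, 22 and 15 higher, against 3.33%, 4.20% and 2.89% of all genes. It left 7, 10 and 6 lower, against 453 of 14584, 625 of 15035 and 451 of 14597 genes. The lists go by role, and at most 4 genes of each are named here by lowest p. The counts of each list are to be read against the same shares of all genes tested. These were 5.68% higher, 5.18% lower, and 8.39% higher with the replicate block. Of 22 further translocon, signal recognition and signal peptidase genes, 4 rose and 2 fell. SSR1, a subunit of the translocon-associated complex, averaged 211 ± 5.14 CPM in siMatrin3 and 149.7 ± 6.22 CPM in siCTRL (SD, n = 3 each), a log2 fold change of 0.49 ± 0.06 (SE, adjusted p = 0.000139 by edgeR). SRPRA, a subunit of the receptor that docks ribosomes at the ER, rose by 0.49. SRP54, the signal sequence-binding subunit of the signal recognition particle, averaged 35.01 ± 1.97 CPM in siMatrin3 and 46.3 ± 2.56 CPM in siCTRL, a log2 fold change of -0.41 (adjusted p = 0.00765).

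Of 17 oligosaccharyltransferase and glucose trimming genes, 1 rose and 1 fell, near the 5.68% and 5.18% of all genes tested. With the replicate block 2 rose, against 8.39% of all genes tested. UGGT1, the enzyme that returns unfolded glycoproteins to calnexin, averaged 164 ± 4.45 CPM in siMatrin3 and 144 ± 2.89 CPM in siCTRL (SD, n = 3 each), passed as higher (adjusted p = 0.0445 by edgeR) and lost its call in every fit that left out 1 library (adjusted p of 0.0540 to 0.146). The glucose-binding lectin MLEC fell by 0.57 (adjusted p = 4.27e-05), and its log2 fold change was -0.11 with effective lengths as an offset. Of 21 further thiol oxidoreductases and prolyl isomerases, 4 rose and 2 fell, and 5 rose with the replicate block. PPIB, the ER cyclophilin, averaged 202 ± 11.3 CPM in siMatrin3 and 158 ± 8.04 CPM in siCTRL (SD, n = 3 each), a log2 fold change of 0.36 ± 0.06 (SE, adjusted p = 0.00278 by edgeR). The prolyl isomerase FKBP11 fell by 0.77 (adjusted p = 0.00558).

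Among 26 further ERAD genes 1 rose and 4 fell, and 3 rose and 4 fell with the replicate block. ERLIN1, part of a membrane complex that removes activated IP3 receptors, had 40.5, 36.9 and 36.03 CPM in the siMatrin3 libraries, against 84.6, 72.4 and 80.5 CPM in the siCTRL libraries. It was lower in every siMatrin3 library, with a log2 fold change of -1.05 ± 0.08 (SE, adjusted p = 1.36e-05 by edgeR). UBE2G2, a ubiquitin-conjugating enzyme of ERAD, had 91.6, 83.8 and 101 CPM in the siMatrin3 libraries, against 64.3, 61.5 and 60.8 CPM in the siCTRL libraries, without overlap, and rose by 0.57 ± 0.08 on the log2 scale (SE, adjusted p = 0.000575). NPLOC4 and UFD1, cofactors of the p97 ATPase that pulls proteins out of the membrane, fell by 0.20 and 0.25 (adjusted p = 0.0274 and 0.0312 by edgeR). NPLOC4 lost its call without siCTRL replicate 1 or 3 or siMatrin3 replicate 2 or 3 (adjusted p = 0.0782, 0.118, 0.0708 and 0.112 by edgeR). UFD1 lost its call without siCTRL replicate 1, 2 or 3 or siMatrin3 replicate 1 or 3 (adjusted p = 0.0558, 0.117, 0.0811, 0.112 and 0.0829 by edgeR).

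Of 13 further chaperones and cofactors, 3 rose and 1 fell. CNPY3, which helps Toll-like receptors to fold, averaged 40.2 ± 2.15 CPM in siMatrin3 and 29.7 ± 2.85 CPM in siCTRL (SD, n = 3 each), a log2 fold change of 0.43 ± 0.09 (SE), and lost its call without siCTRL replicate 3 (adjusted p = 0.0567 by edgeR). TMBIM6, an ER membrane protein known as BAX inhibitor 1 that restrains IRE1, averaged 247 ± 9.53 CPM in siMatrin3 and 374 ± 16.7 CPM in siCTRL (SD, n = 3 each), a log2 fold change of -0.60 ± 0.05 (SE, adjusted p = 3.51e-05 by edgeR). It passed in all 17 alternatives.

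The list of the PERK and ATF4 arm also held ERN2 and 3 kinases of the translation factor eIF2 other than PERK (EIF2AK1, EIF2AK2 and EIF2AK4). Of its 16 tested genes, 6 rose, EIF2AK1 among them, and 1 fell, against 5.68% and 5.18% of all genes tested. The other 9 did not pass. The log2 fold change was above 0 in 13 and below 0 in 3. The genes described here are among those that rose. ASNS, the asparagine synthetase induced by ATF4, had 81.3, 80.1 and 88.1 CPM in the siMatrin3 libraries, against 60.2, 62.2 and 60.6 CPM in the siCTRL libraries, a log2 fold change of 0.45 ± 0.07 (SE, adjusted p = 0.00127 by edgeR). EIF2AK1 rose by 0.29 (adjusted p = 0.00311 by edgeR), a call lost with effective lengths as an offset and on TPM. Its lowest log2 fold change over the 17 alternatives was 0.087. DDIT4, an inhibitor of mTORC1 that ATF4 and other stress factors induce, had 81.8, 84.97 and 47.7 CPM in the siMatrin3 libraries, against 31.1, 48.4 and 27.6 CPM in the siCTRL libraries. The groups overlapped, since siMatrin3 replicate 3 lay below siCTRL replicate 2, and the log2 fold change of 0.95 ± 0.21 (SE, adjusted p = 0.0117 by edgeR) lost its call without siCTRL replicate 1 or 3 or siMatrin3 replicate 1 (adjusted p = 0.0511, 0.0767 and 0.0512).

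Of 12 regulators of ATF6 and XBP1, 2 rose. MBTPS2, the site-2 protease that cleaves ATF6, averaged 34.7 ± 3.65 CPM in siMatrin3 and 22.9 ± 2.21 CPM in siCTRL (SD, n = 3 each), a log2 fold change of 0.61 ± 0.11 (SE, adjusted p = 0.00339 by edgeR). CREB3L2, a membrane-bound relative of ATF6, rose by 0.39, a call lost with effective lengths as an offset and on TPM. Its lowest log2 fold change over the 17 alternatives was 0.13. Of 23 genes of COPII vesicles, which leave the ER, and of KDEL receptors, which return escaped chaperones, 7 rose and 1 fell, and 8 rose with the replicate block. SEC24A, a cargo adaptor of the COPII coat, had 58.9, 59.9 and 63.5 CPM in the siMatrin3 libraries, against 39.7, 39.4 and 37.2 CPM in the siCTRL libraries, a log2 fold change of 0.65 ± 0.07 (SE, adjusted p = 0.000159 by edgeR). KDELR2 averaged 144 ± 9.40 CPM in siMatrin3 and 105 ± 6.91 CPM in siCTRL (SD, n = 3 each), a log2 fold change of 0.46 ± 0.07 (SE, adjusted p = 0.00121 by edgeR). The GTPase SAR1A fell by 0.30, a call lost without siCTRL replicate 3 (adjusted p = 0.0530 by edgeR). That call was also lost with effective lengths as an offset and on TPM, and SAR1A came as near to 0 as -0.086 over the 17 alternatives. SURF4, a cargo receptor, rose by 0.24 on counts, lost the call without siCTRL replicate 3 or siMatrin3 replicate 1 or 3 (adjusted p = 0.0621, 0.0564 and 0.0611 by edgeR), and stood at -0.06 on log2(TPM + 1), where the median of all genes was -0.09, and at 0.04 after TMM scaling. Exons of MLEC, SSR1, SRPRA, SRP54, PPIB, FKBP11, NPLOC4, UFD1, ASNS, EIF2AK1, MBTPS2, SEC24A and KDELR2 also overlap those of another gene.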

How the data were processed

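RNA of HCT116 cells was measured in 3 siMatrin3 and 3 siCTRL libraries at 48 h. The labels name a stranded mRNA kit, while the study's methods describe ribosomal RNA depletion with a directional kit and biological triplicates. Per the labels, the authors processed reads with cutadapt, TopHat and RSEM on hg19; the annotation release was not stated, nor was the strand setting. The authors deposited RSEM expected counts per gene, estimates with no normalization between libraries, TPM, scaled within each library, and effective lengths in bases, a mean over isoforms. No comparison columns of the authors were used.

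The 34 members and the other gene lists were chosen with earlier results of these data known. IDs were matched to GENCODE release 44 (58472 of 58884, 99.3%), and positions are on hg38. Expected counts were rounded, filtered with filterByExpr (minimum count 10, total 15) and TMM-scaled, and groups were compared in edgeR 4.0.16 under R 4.3.3 by its quasi-likelihood test, two-sided, with Benjamini-Hochberg adjustment at 0.05. TPM was tested by limma-trend (limma 3.58.1) on log2(TPM + 1), a scale that understates changes of low genes. The alternatives were RLE and upper quartile scaling, no count filter or a mean of at least 5 CPM, no mitochondrial or small RNA genes, effective lengths as an offset, DESeq2 1.42.0, pseudocounts of 1 and 0.1, TMM-scaled TPM, a replicate block, and each library left out. By rule, all members were named, with values per library for those past the threshold, apart in CPM, or sensors and XBP1, and up to 4 genes of each other list by lowest p. COL1A2 and DCN were named after their values were seen. Overlap of exons was taken from GENCODE.

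Same-numbered libraries of the 2 groups deviated together (correlations 0.11, 0.10 and 0.16), a hint of pairing from the data. The reported calls come from the fit without a block, and the fit with the replicate block is given where it changes them. Libraries of 1 group differed by more than counting error (chi-square over degrees of freedom from 2.65 to 4.40). All p-values measure the spread between cultures of 1 line, and read counts without molecular identifiers carry counting error besides. The tests were checked on simulated counts with 200 changed genes.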

Additional observations from a re-analysis of the deposited data

How the results depend on the processing

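The members' median log2 fold change stayed above 0 in all 17 alternatives. All 10 members that passed kept their direction, whereas 11 of the 24 that did not pass changed sign in at least 1 alternative, 8 of them outside log2(TPM + 1) and log2(TPM + 0.1) without scaling between libraries. CANX passed in 17 alternatives, HSPA5 in 14, PDIA3 in 13, PDIA4 and ERO1A in 10, SEC61A1 in 9, DNAJC3 and P4HB in 8, and HYOU1 and CALR in 7. Members higher numbered 2 with effective lengths as an offset, 1 on log2(TPM + 1), 1 on log2(TPM + 0.1) and 1 on TMM-scaled TPM, and 3 to 8 when single libraries were left out. Members lower numbered 0 with the offset and on all 3 TPM scales, and 0 to 1 when single libraries were left out. The members' median was 0.057 on log2(TPM + 1) and 0.058 on log2(TPM + 0.1), where the median of all genes was -0.09 and -0.10, and 0.12 to 0.18 when single libraries were left out, lowest without siCTRL replicate 3. Of the other secretory genes, 4 were higher and 3 lower with the offset, 18 and 7 by DESeq2, 1 and 3 on log2(TPM + 1), 1 and 3 on log2(TPM + 0.1), and 2 and 2 on TMM-scaled TPM. Of all 14334 genes tested, 99 were higher and 105 lower with the offset and 498 and 439 by DESeq2. On log2(TPM + 1) they were 31 and 118, on log2(TPM + 0.1) 30 and 102, and on TMM-scaled TPM 44 and 34. Without a count filter 7 of the other secretory genes were lower. Calls of SRPRA, SRP54, MLEC, PPIB, FKBP11, CNPY3, ASNS, EIF2AK1, DDIT4, MBTPS2, CREB3L2, SAR1A, NPLOC4, UFD1 and UGGT1 were lost with the offset and on all 3 TPM scales. SSR1 and SEC24A kept their calls with the offset and lost them on all 3 TPM scales. KDELR2 lost its call on log2(TPM + 1) and log2(TPM + 0.1). SURF4 lost its call with the offset and on TMM-scaled TPM, and turned sign on log2(TPM + 1) and log2(TPM + 0.1). Leaving out single libraries left 13 to 22 of the other secretory genes higher and 5 to 10 lower. With the replicate block 12 members were higher and 1 lower, and HSP90B1, SDF2L1 and PDIA6 passed; the block changed no other member's call.

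Signs turned in members that did not pass, and for SURF4. With the offset, DNAJC10 stood at 0.010, EDEM1 at 0.032, SEL1L at 0.026 and EDEM3 at -0.10. On log2(TPM + 1) and log2(TPM + 0.1), EIF2AK3 stood at -0.049 and -0.055, DNAJB11 at -0.088 and -0.091, CRELD2 at -0.072 and -0.075, EDEM3 at -0.18 and -0.21, DERL1 at -0.084 and -0.086, DERL2 at -0.067 and -0.070, and SURF4 at -0.055 and -0.056. All but EDEM3 lay above the median of all genes on those scales and stood above 0 on TMM-scaled TPM (0.030 for EIF2AK3, 0.0061 for DNAJB11, 0.020 for CRELD2, 0.010 for DERL1, 0.026 for DERL2 and 0.040 for SURF4). On TMM-scaled TPM, DNAJC10 stood at 0.0024, EDEM1 at 0.015, SEL1L at 0.0082 and EDEM3 at -0.098. When single libraries were left out, DNAJB9 ran from -0.13 to 0.089, ERO1B from -0.063 to 0.24, EDEM3 from -0.015 to 0.18, DERL1 from -0.0088 to 0.14 and DERL2 from -0.027 to 0.081. The cause of these changes was not tested. ERO1B had 27 to 56 counts per library, which limits its precision.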

Other observations

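The effective length that RSEM gives a gene, which follows its estimated mix of isoforms, differed on average between the groups in some members, and of the 5 described here DNAJC10 alone did not overlap between groups. ERN1 averaged 2916 bases in siMatrin3 and 3884 bases in siCTRL, a difference of -24.9%, and its longest and shortest values over the 6 libraries differed by a ratio of 2.14. HERPUD1 averaged 892 bases in siMatrin3 and 1092 bases in siCTRL, and DNAJC10 2270 bases in siMatrin3 and 2601 bases in siCTRL. EIF2AK3 and EDEM3 differed the other way, by 15.7% and 15.2%. HSPA5 and DNAJB9 had the same length in every library. No test was run on these lengths, and they are estimates from gene tables, not a measurement of isoforms.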
